A study of Arabidopsis thaliana with 6 samples.

Results

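Brassinosteroids are plant steroid hormones that drive cell expansion, vascular differentiation and shoot growth. They are made from campesterol by DET2 and a series of cytochrome P450 enzymes, perceived at the cell surface by the receptor kinase BRI1, and relayed by inhibition of the kinase BIN2, which frees the transcription factors BZR1 and BES1. In Arabidopsis, these factors repress several synthesis genes when the hormone signal is strong, so transcripts such as DWF4, CPD, ROT3 and BR6OX2 are commonly read as a feedback gauge of the pathway, whereas transcripts of the inactivating enzyme BAS1 are induced by the hormone.

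The 10 genes described here were taken by locus identifier from a table of 33557 Arabidopsis thaliana loci: 5 synthesis genes (DWF4, CPD, DET2, BR6OX2 and ROT3), the inactivation gene BAS1, the receptor gene BRI1, the kinase gene BIN2 and the transcription factor genes BZR1 and BES1. All 10 loci were found, and RefSeq gives each of them the same symbol. The table compares wild-type Col-0 with the quadruple mutant camta1/2/3/sid2 in the same accession, in which the calmodulin-binding transcription factors CAMTA1, CAMTA2 and CAMTA3 and the isochorismate synthase SID2 are mutated together. Both genotypes were grown on soil at 22 °C with 12 h of light a day at 100 to 120 µmol m-2 s-1. Whole aerial parts were harvested at an age of 21 days after germination, at ZT12, which is 12 h after lights on. The labels name 3 libraries per genotype, no alleles, and no mutant carrying only some of these mutations. The values are FPKM, which scale fragments to transcript length and library size, and the authors deposited 1 combined value per genotype. No value below therefore has a replicate error, no p-value could be computed, and sequencing depth is unknown.

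Each difference is the mutant's log2(FPKM + 1) minus that of the wild type, termed the log2 ratio below, and folds are plain ratios of FPKM. Loci with at least 1 FPKM in at least 1 genotype were analysed, 18547 in all. Their median log2 ratio was -0.06. Of the targeted genes, CAMTA1 (AT5G09410) was at 13.6 FPKM in wild-type plants and 3.30 in mutants, CAMTA3 (AT2G22300) at 9.94 and 2.68, CAMTA2 (AT5G64220) at 9.25 and 6.32, and ICS1/SID2 (AT1G74710) at 4.56 and 3.73. The 6 leaf mesophyll markers stood between 765 and 11112 FPKM in the wild type, and all 6 had log2 ratios of at least 0.32 in size, 4 of them higher in the mutant and 2 lower. RBCS2B was at 3096 and 5063 FPKM in wild-type and mutant plants, and LHCB3 at 1760 and 815. All 5 flower markers were under the filter, and of the root markers IRT1 was listed at 0 in both genotypes while PYK10 reached 51.6 FPKM in the wild type.

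The brassinosteroid genes stood at nearly the same level in both genotypes. None of the 10 had a log2 ratio of 0.32 or more in size, the smallest difference counted, where 12.4% of all analysed loci did. None reached 1.5-fold or 2-fold, against 3.8% and 1.48% of analysed loci. The log2 ratios ran from -0.23 for DET2 to 0.12 for CPD, with a median of 0.00 and a median size, regardless of sign, of 0.05, beside 0.13 over all analysed loci. These sizes depend on the scale: with the mutant scaled to a median ratio of 0, they were 0.10 and 0.11. By sign, 5 genes were higher (35.4% of analysed loci were) and 5 lower (64.6% were), but 9 were higher and 1 lower once the mutant was scaled to a median ratio of 0, where 50.0% of analysed loci were higher. The higher genes include ROT3, which passed the filter through its mutant value alone. At the filter of 5 FPKM, which left out ROT3 and BAS1, 4 were higher and 4 lower, where 35.3% and 64.7% of analysed loci were. Whole shoots were sampled, so fewer cells of a type and less RNA per cell cannot be told apart in any of these values.

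The synthesis genes spanned a wide range of levels. DWF4 (AT3G50660), the side-chain hydroxylase generally regarded as the rate-limiting step, was at 8.74 FPKM in wild-type plants and 8.51 in mutants. CPD (AT5G05690), the P450 that oxidises the steroid ring, was at 43.7 and 47.5 FPKM, or 1.09-fold higher. CPD thus exceeded DWF4 by 5.01-fold in wild-type plants and 5.59-fold in the mutant. BR6OX2 (AT3G30180), the oxidase of the last steps to castasterone and brassinolide, was at 8.67 and 9.45 FPKM, again 1.09-fold higher. ROT3 (AT4G36380), a P450 that shares its step with CYP90D1, had the lowest level of the 10 genes, at 0.967 and 1.08 FPKM, or 1.11-fold higher. This fold was above that of CPD, although the log2 ratio of ROT3, 0.08, was below CPD's 0.12. ROT3 passed the filter through its mutant value alone. Of these 4 genes that the pathway's own factors are known to repress, CPD and BR6OX2 were slightly higher and DWF4 slightly lower. ROT3 was slightly higher too, but its entry through the mutant value alone left no other sign possible. DWF4 moved to a log2 ratio of 0.03 when the mutant was scaled to the reference genes. CPD and BR6OX2 stayed above 0 under every setting tried, and ROT3 under each except the filter of 5 FPKM, which left it out. For CPD, BR6OX2 and ROT3 this is no check on direction. Every scaling tried raised the mutant values, and the other settings cannot change a sign, so none could have brought these genes below 0.

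DET2 (AT2G38050), the steroid reductase that acts on campesterol derivatives, had the largest difference of the 10 genes, at 12.6 FPKM in wild-type plants and 10.6 in mutants. This is 1.19-fold lower, with a log2 ratio of -0.23. Of all analysed loci, 23.0% had a larger difference in size, so DET2 did not stand apart from the bulk of the transcriptome. It was the one gene of the 10 that stayed below 0 under every scaling. With the mutant scaled to a median ratio of 0, however, CPD had the largest log2 ratio in size, at 0.19, with DET2 at -0.17.

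BAS1 (AT2G26710), a P450 that inactivates brassinosteroids by hydroxylation, was at 1.48 FPKM in wild-type plants and 1.46 in mutants. On the log2(FPKM + 1) scale it had the smallest log2 ratio in size of the 10 genes, -0.01, and 95.1% of analysed loci differed by more. This rank depends on the scale. As plain ratios without a pseudocount, BRI1 was smaller in size, at 0.0192 in log2 units against -0.0200 for BAS1. With the mutant scaled to a median ratio of 0, BES1 was the smallest, at 0.012. The ratio of DWF4 to BAS1, synthesis against inactivation, was 5.92 in wild-type plants and 5.84 in mutants.

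As deposited, the log2 ratios of the signalling genes all lay within 0.06 of 0. BRI1 (AT4G39400), the receptor kinase, was at 24.8 FPKM in wild-type plants and 25.2 in mutants. BIN2 (AT4G18710), the GSK3-like kinase that phosphorylates and restrains BZR1 and BES1, was the most abundant transcript of the 10, at 86.2 and 85.0 FPKM. BES1 (AT1G19350) was at 48.4 and 46.5 FPKM, and BZR1 (AT1G75080), its close relative, at 14.5 and 15.0. Their log2 ratios were 0.02 for BRI1, -0.02 for BIN2, -0.06 for BES1 and 0.04 for BZR1. With the mutant scaled to the reference genes they were 0.09, 0.06, 0.02 and 0.11, in the same order, so those of BIN2 and BES1 lay above 0. The 4 differences as deposited were exceeded in size by 92.2%, 91.5%, 76.4% and 82.5% of analysed loci, again in that order.

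**Figure D1:**
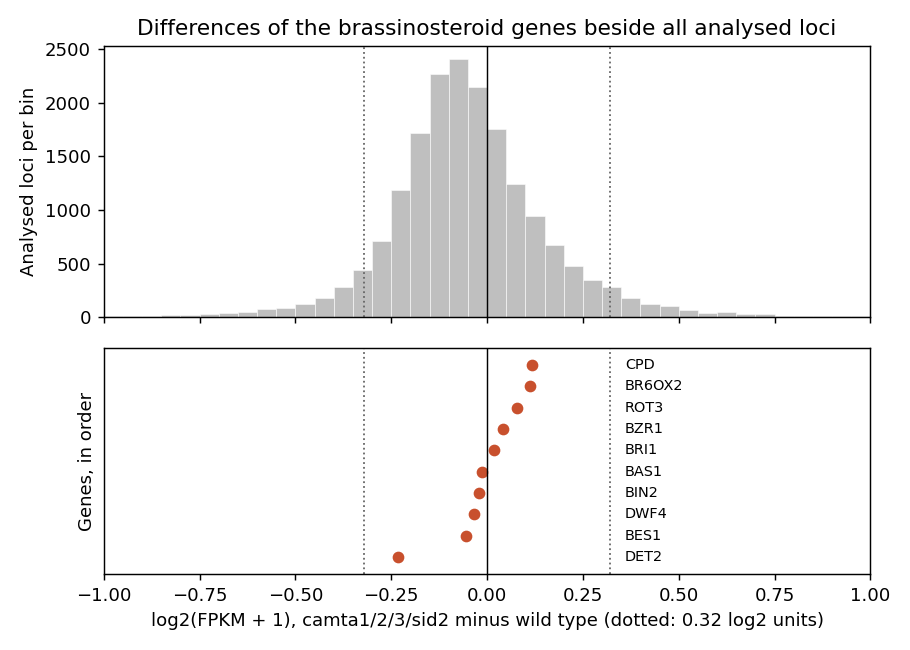
Upper panel: number of analysed loci per 0.05-wide bin of the log2(FPKM + 1) difference, mutant minus wild type; 274 loci beyond 1 log2 unit are not drawn. Lower panel: the same difference for each of the 10 genes, all inside the dotted lines at 0.32 log2 units, from DET2 at -0.23 to CPD at 0.12.

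The order of levels was almost the same in both genotypes. In the wild type it ran from BIN2 through BES1, CPD, BRI1, BZR1, DET2, DWF4, BR6OX2 and BAS1 to ROT3. In the mutant BES1 and CPD changed places, as did DWF4 and BR6OX2. Both exchanges were between neighbours whose levels lay close together (48.4 and 43.7 FPKM, 8.74 and 8.67 FPKM in the wild type), and without replicate error no pair of neighbours can be said to differ. BIN2 lay above 91.3% of analysed loci in wild-type plants and ROT3 above 1.23%.

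Within gene families, the make-up was also much alike. BRI1 supplied 85.9% of the summed FPKM of BRI1, BRL1 and BRL3, the receptors that bind the hormone, in wild-type plants and 86.7% in the mutant. BIN2 supplied 51.1% and 50.0% of its group with BIL1 and BIL2, the kinases most related to it in sequence. Among the 6 BZR1/BES1 factors, BES1 was the most abundant, with 43.2% and 41.4% of the sum, and BZR1 held 13.0% and 13.3%. BES1 exceeded BZR1 by 3.34-fold in wild-type plants and 3.11-fold in the mutant. BR6OX1, the sister enzyme of BR6OX2, was under the filter at 0.596 and 0.296 FPKM, so BR6OX2 made up 93.6% and 97.0% of the pair. CYP90D1 (AT3G13730) was at 3.51 FPKM in both genotypes; it exceeded ROT3 by 3.63-fold and 3.26-fold.

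**Figure D2:**
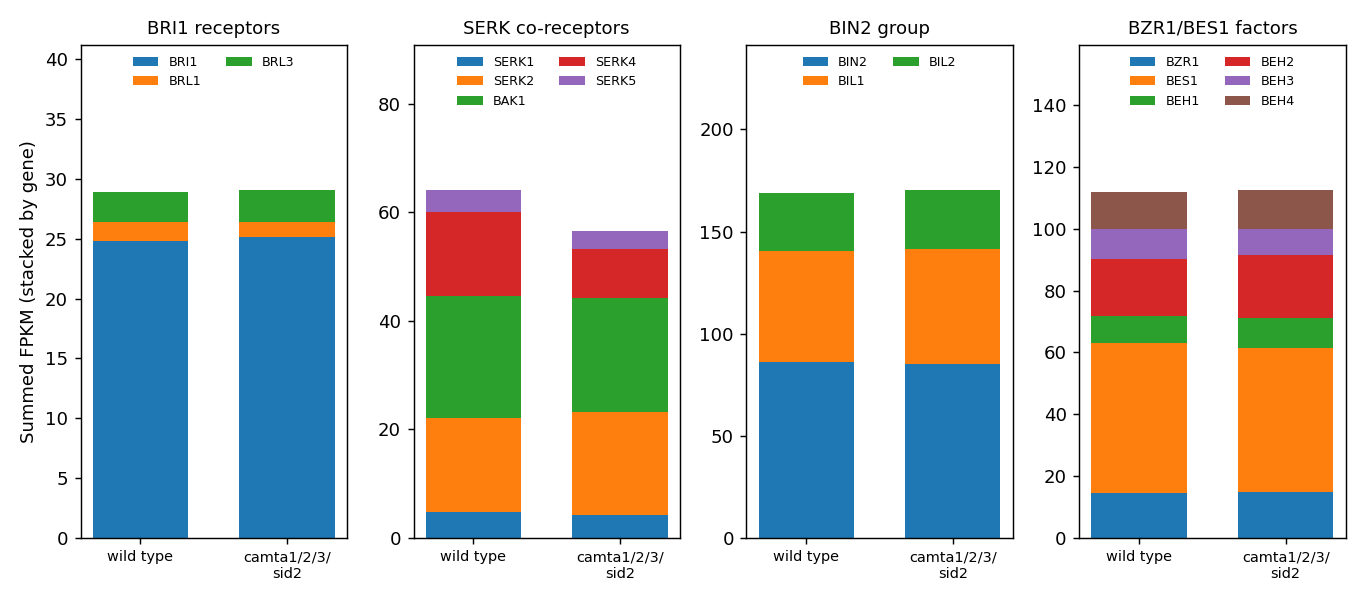
Summed FPKM per genotype, stacked by gene, for 4 families: the hormone-binding receptors, the SERK co-receptors, the BIN2 group and the BZR1/BES1 factors. The other stacks have nearly equal heights (28.9 and 29.0, 169 and 170, 112 and 112 FPKM), whereas that of the SERK genes is 64.0 FPKM in wild-type plants and 56.6 in mutants.

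How far relatives can exchange reads differs between these families. In the RefSeq annotation, the coding sequences of BZR1 and BES1 were identical at 85.0% of aligned bases, and their longest shared exact stretch of transcript was 71 bases. BR6OX2 and BR6OX1 were 81.9% identical, with at most 32 bases shared, and BIN2 and BIL1 77.9%, with at most 20. The sources used here do not say how reads matching several loci were divided, which touches BZR1 and BES1 the most of these pairs.

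The wider pathway held 92 genes in 10 lists, of which 80 were analysed. Of these, 35 were higher (43.8%, against 35.4% of all analysed loci) and 45 lower. With the mutant scaled to a median ratio of 0, 48 were higher and 32 lower, where 50.0% of analysed loci were higher. The median log2 ratio of the 80 as deposited was -0.02, beside -0.06 over all analysed loci. On the log2(FPKM + 1) scale, 2 of the 80 (2.5%) differed by 1.5-fold, against 3.8% of analysed loci, and neither is among the 10 genes. They are SERK4 and TCH4, both lower in the mutant. As a plain ratio of FPKM, UGT73C6 also passed 1.5-fold and was higher in the mutant, which makes 3.

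The genes before and after the synthesis steps were examined next. Of the 6 genes of the sterol steps before campesterol, 2 were higher (33.3%, against 35.4% of all analysed loci) and 4 lower. Their median log2 ratio was -0.12, beside -0.06 over all analysed loci, and -0.05 with the mutant scaled to a median ratio of 0. DWF7 (AT3G02580), a sterol desaturase, was at 53.7 FPKM in wild-type plants and 46.1 in mutants, and FK (AT3G52940), a sterol reductase, at 14.8 and 16.9. The inactivation list had 3 of 6 analysed genes higher (50.0%, against 35.4% of all analysed loci), with a median of 0.09. Without SOB7, which passed the filter through its mutant value alone, the median was -0.01. UGT73C6 (AT2G36790), a glucosyltransferase that acts on brassinosteroids and flavonoids, was at 1.31 and 2.02 FPKM, a plain ratio of 1.54, and the related UGT73C5 (AT2G36800) at 2.71 and 3.21. These UGT73C coding sequences are 91.4% identical and can share reads over up to 110 bases. BAT1 (AT4G31910), an acyltransferase, was at 1.43 and 1.05 FPKM, and SOB7 (AT1G17060), a P450, at 0.931 and 1.255.

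The receptor list had 4 of 11 genes higher (36.4%, against 35.4% of all analysed loci). Its median was -0.15, beside -0.06 over all analysed loci, and -0.09 with the mutant scaled to a median ratio of 0. At the filter of 1 FPKM the list's median was the lowest of the 10 lists. At the filter of 5 FPKM it was -0.10, above those of the induced genes (-0.20), the BSK and CDG1 kinases (-0.13) and the sterol steps (-0.12). SERK4 (AT2G13790), a co-receptor kinase of both brassinosteroid and immune receptors, was at 15.6 FPKM in wild-type plants and 9.17 in mutants, or 1.70-fold lower. Its partner in both roles, BAK1 (AT4G33430), was at 22.5 and 20.9, and SERK2 (AT1G34210) at 17.2 and 19.0 FPKM. SERK4's share of the 5 SERK genes was 24.3% in wild-type plants and 16.2% in the mutant. SERK4 and SERK5 share an exact stretch of 473 bases, so their values depend on how common reads were divided; SERK5 (AT2G13800) was at 3.88 and 3.29 FPKM. BIR3 (AT1G27190), a kinase-like protein that binds BAK1 and that RefSeq lists under its locus only, was at 25.7 and 20.8, and BRL2 (AT2G01950), a BRI1-like kinase of provascular cells, at 8.52 and 7.06. BRL1 (AT1G55610), a hormone-binding receptor, was at 1.56 and 1.20 FPKM. BKI1 (AT5G42750), the inhibitor that BRI1 releases on activation, was at 19.2 and 21.6. Of the shoot meristem markers, 3 of 5 were analysed and all 3 were lower (median -0.66 on the log2 scale); STM was at 4.67 and 2.37 FPKM and KNAT1 at 4.49 and 2.47, and the whole list summed to 27.6 and 21.1 FPKM. Markers of vascular tissue were lower in 5 of 5 genes, with summed FPKM of 156 and 132 and a median of -0.25. Markers of dividing cells were lower in 6 of 6, with sums of 192 and 174 and a median of -0.19. Beside these counts, 64.6% of all analysed loci were lower, with a median of -0.06. The smallest differences were -0.002 among the vascular markers and -0.03 among those of dividing cells. The part of these marker differences in the values of the receptor list was not tested.

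The cytoplasmic relay was close to level. Of 13 BSK and CDG1 kinases, which pass the signal on from BRI1, 8 were analysed. Of these, 4 were higher (50.0%, against 35.4% of all analysed loci) and 4 lower, with a median of -0.06. BSK6 (AT3G54030) was furthest apart, at 5.71 and 4.55 FPKM. BSK11 and SSP were listed at 0 in both genotypes. All 3 analysed BSU1 family phosphatases, which inactivate BIN2, were lower by small amounts, where 64.6% of all analysed loci were lower. BSL1 (AT4G03080) was at 27.5 and 24.1 FPKM, and the list's median was -0.04 beside -0.06 over all analysed loci. BSU1 itself was under the filter, at 0.0460 and 0.0478. The 10 GSK3-like kinases had 5 higher (50.0%, against 35.4% of all analysed loci) and 5 lower and a median of -0.01. SK31 (AT3G61160) was furthest apart, at 2.55 and 3.24 FPKM.

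The transcription factor lists had medians of 0.04 for the BZR1/BES1 family and 0.01 for partner and regulator factors. BEH3 (AT4G18890) was at 9.54 and 8.63 FPKM and BEH1 (AT3G50750) at 8.83 and 9.71. Of 12 analysed partners and regulators, 6 were higher (50.0%, against 35.4% of all analysed loci) and 6 lower. AIF1 (AT3G05800), an inhibitory helix-loop-helix protein, was at 12.9 and 15.4 FPKM, IBH1 (AT2G43060), a growth inhibitor repressed by BZR1, at 9.07 and 7.67, and BIM1 (AT5G08130), a DNA-binding partner of BES1, at 28.9 and 25.4.

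Genes that brassinosteroids are known to induce had 4 of 12 analysed members higher (33.3%, against 35.4% of all analysed loci), with a median of -0.05 beside -0.06 over all analysed loci. TCH4 (AT5G57560), a wall-modifying enzyme also induced by touch, was at 6.98 FPKM in wild-type plants and 3.10 in mutants, or 2.25-fold lower. EXL2 (AT5G64260), of the EXORDIUM growth-related family, was at 13.6 and 9.34, and IAA19 (AT3G15540), an auxin response repressor, at 2.75 and 2.00. BEE2 (AT4G36540), a helix-loop-helix factor named for its induction by the hormone, went the other way, at 40.1 and 47.6 FPKM. The list's median had no settled sign: it was -0.20 with the filter raised to 5 FPKM, but 0.005 and 0.011 with the mutant scaled to a median ratio of 0 and to the reference genes.

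**Figure D3:**
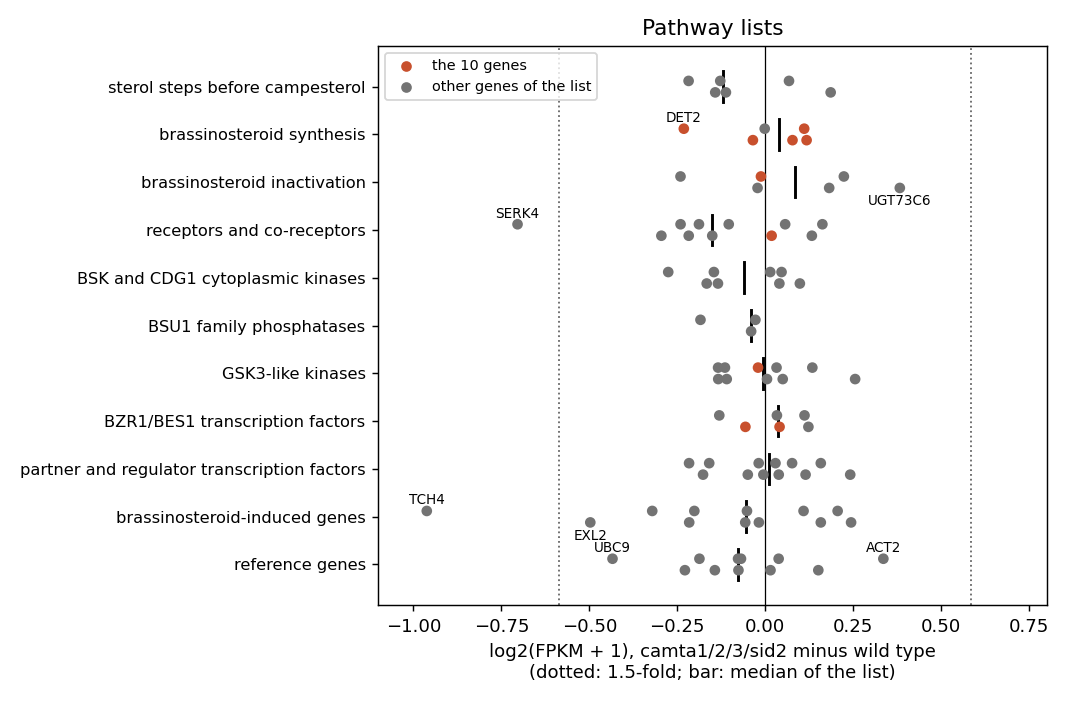
Difference on the log2(FPKM + 1) scale, mutant minus wild type, for each analysed gene of the 10 pathway lists and of the 11 reference genes, with 1 point per gene and a bar at each list's median. Only SERK4 at -0.70 and TCH4 at -0.96 lie beyond the dotted lines at 1.5-fold, and the 10 genes lie near 0.

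The stretches before the annotated gene starts were searched on both strands for the brassinosteroid response element in its forms CGTGCG and CGTGTG, to which BZR1 binds. They were also searched for CGCG, a core that CAMTA factors recognise. No separate search was made for CAMTA sites without CGCG, so genes without CGCG are not thereby genes without a CAMTA site. Sequences are from the RefSeq annotation of TAIR10.1 and coordinates belong to that build. Within 1000 bases, CGTGCG was found before DWF4 only and CGTGTG before ROT3, BRI1 and BZR1, among 27443 protein-coding promoters of which 5.09% and 17.2% hold them. CGCG was found before DWF4 and BZR1, that is 2 of 10 genes, and before 32.2% of all promoters. Within 250 bases, the window closest to the start, no member held CGCG, against 10.1% of all promoters, and only BZR1 held CGTGTG, against 5.37%. The longer CAMTA sites ACGCGT and CCGCGT, which contain CGCG, occur within 1000 bases in 5.23% and 5.75% of all promoters; among the 10 genes 1 CCGCGT was found, before BZR1 inside the neighbouring locus AT1G75070. The E-box CANNTG, used by BES1 with its partners, was found before all 10 genes and 96.2% of all promoters, and its form CACGTG before BZR1 alone and 14.8% of all promoters. A match is a description of letters and not a binding site. The stretches are shown because they are where the pathway's own factors or the mutated CAMTA factors could bind; they are read 5′ to 3′ on the gene's strand, with capitals marking the match on either strand.

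DWF4, response element, minus strand of TAIR10.1 chr3:18817831-18817890: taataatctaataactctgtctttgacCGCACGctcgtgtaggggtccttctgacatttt
DWF4, CGCG core, minus strand of chr3:18818053-18818110: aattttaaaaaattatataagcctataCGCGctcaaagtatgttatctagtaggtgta
ROT3, response element, minus strand of chr4:17192888-17192947: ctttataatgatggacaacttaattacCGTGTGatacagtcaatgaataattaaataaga
BRI1, response element, plus strand of chr4:18323602-18323661: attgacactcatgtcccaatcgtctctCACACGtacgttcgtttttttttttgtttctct
BZR1, response element, plus strand of chr1:28185299-28185358: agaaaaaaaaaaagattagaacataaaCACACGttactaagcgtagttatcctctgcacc
BZR1, CGCG core, plus strand of chr1:28184637-28184694: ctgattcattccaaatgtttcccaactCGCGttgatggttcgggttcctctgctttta

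The DWF4 response element lies at -458 to -453, counted in bases from the gene start, and its CGCG core at -678 to -675. BZR1 has 3 CGTGTG matches, the printed one at -178 to -173. The genes with a CGCG core, DWF4 and BZR1, had log2 ratios of -0.03 and 0.04, inside the range of the 8 genes without one. The genes with either response element, DWF4, ROT3, BRI1 and BZR1, lay between -0.03 and 0.08.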

How the data were processed

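Per the labels, 6 RNA libraries were made, 3 per genotype. Per the file headers, the authors deposited FPKM, 1 value per locus and genotype; the sources used here do not say how libraries were combined. Per the submitters' processing notes, the tools were TopHat 1.4.1, Cufflinks 2.1.1 and Cuffdiff, with build TAIR10. The column headed as the quadruple genotype was taken as camta1/2/3/sid2, the one mutant in the labels.

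FPKM is no count, so no count model was used, and with 1 value per genotype no test was run. Ratios used a pseudocount of 1 and a filter of 1 FPKM in at least 1 genotype; differences were counted from 0.32 log2 units, 1.5-fold and 2-fold on this scale. A value of 0 was treated as listed at 0. Low loci show larger folds when the pseudocount is smaller. Members and gene lists were chosen with earlier results of these data known. Named genes are all members, the targeted genes and up to 4 genes per list with the highest absolute log2 ratio. BAK1, SERK2, SERK5, BKI1, BSU1, BSK11, SSP, BR6OX1 and CYP90D1 were added after their values were seen. They are relatives of members or of other named genes, or other parts of the pathway. BRL3, BIL1 and BIL2 are named as parts of family sums, and IRT1 as a root marker listed at 0. No gene of like pattern is named, because each gene has 2 values only. The counting was tested on simulated data.

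Symbols, gene models and upstream sequence came from RefSeq TAIR10.1, matched by locus identifier for 97.8% of the table. Coding sequences were aligned globally with Biopython 1.88. Python 3.11.15 with pandas 2.3.3, numpy 2.4.6 and matplotlib 3.10.9 made the values and plots.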

Additional observations from a re-analysis of the deposited data

How the results depend on the processing

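Under 9 alternatives (pseudocounts of 0.1 and 0.5, no filter, a filter of 5 FPKM, 3 scalings, and, chosen after seeing the data, plain ratios and protein-coding nuclear loci only; the median sizes and the omission of SOB7 were added at the same stage), no member reached 0.32 log2 units, and the largest member log2 ratio was 0.25 in size. The split by sign did depend on scaling: it was 5 higher and 5 lower as deposited, 9 and 1 when scaled to a median ratio of 0 or to the reference genes, and 7 and 3 when scaled to the same sum of FPKM. DWF4, BAS1, BIN2 and BES1 changed sign among these settings and have no direction of their own. All 3 scalings raised the mutant values, so only genes lower as deposited could change sign. Pathway genes at 1.5-fold were 3 as plain ratios, with UGT73C6 added, against 2 otherwise. More of all loci differ on the plain scale: 16.7% reached 0.32 log2 units there, against 12.4% as first analysed. TCH4 moved from -0.96 to -1.15 with a pseudocount of 0.1 and to -1.17 as a plain ratio. The filter of 5 FPKM left out ROT3 and BAS1. No paired analysis was possible because the table has 1 column per genotype, which for the same reason allows no replicate to be left out. Depth is unknown, so the precision of low values such as those of ROT3 and BAS1 cannot be given.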

Other observations

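The 11 reference genes, commonly used to normalise transcript levels, divided into 4 above and 7 below 0, where 35.4% and 64.6% of all analysed loci were. Their median log2 ratio was -0.08 and their median size, regardless of sign, 0.14, beside 0.05 for the brassinosteroid genes. This gap depends on scaling: with the mutant scaled to a median ratio of 0 the median sizes were 0.105 and 0.096, scaled to the reference genes 0.112 and 0.103, and scaled to the same sum of FPKM 0.115 and 0.056. UBC9 (AT4G27960) was at 168 FPKM in wild-type plants and 124 in mutant plants, and ACT2 (AT3G18780) at 309 and 390. Of the reference genes 2 (18.2%) reached 0.32 log2 units, and of the brassinosteroid genes 0 did, where 12.4% of all analysed loci did. With lists this short, neither count can be told apart from that share. The summed FPKM of the 10 genes was 250.2 for the wild type and 250.3 for the mutant. These are descriptions of 1 value per genotype, and no test of the difference between the lists was run.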
